A study of Mus musculus with 4 samples.

Results

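Interferon-stimulated genes were measured in single-cell RNA-seq data of Cxcl12CE-tdTomato+ cells from ablated and intact mouse femurs. The members were a fixed list of 39 gene symbols, chosen with earlier results of these data known. Of these, 38 were found among the 28006 features of the count tables (Mx2 was not). They were divided by their roles into 9 type I-like genes (Ifit1, Ifit2, Ifit3, Ifit3b, Isg15, Oasl1, Oasl2, Oas1a, Oas2), 9 interferon-gamma-like genes (Gbp2, Gbp3, Gbp5, Gbp7, Igtp, Iigp1, Irgm1, Irgm2, Ifi47), 4 transcription factors, 9 antiviral effectors of which Mx2 was one, 3 sensors of foreign nucleic acid and 5 enzymes of ISG15 conjugation or ADP-ribosylation. The mice carried Cxcl12-iCreER and 1 R26R tdTomato reporter allele, so that cells with Cxcl12 promoter activity at the time of tamoxifen, and their descendants, were marked in both conditions. Tamoxifen was given 7 days before the surgery, the marrow of the right femur was removed with endodontic files, and tdTomato+ cells were sorted 7 days after the ablation. Ablated femurs gave the ABL libraries and the unoperated contralateral femurs of operated mice gave the CONT libraries, so the controls came from animals that had also undergone surgery. The 4 libraries form 2 biological replicates of 1 CONT and 1 ABL library, replicate 1 on Chromium version 2 and pooled from several mice, replicate 2 on version 3.

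Interferons are secreted proteins that a cell releases when it detects viral nucleic acid or other danger. Type I interferons act through the receptor pair Ifnar1 and Ifnar2 and a complex with Stat2 and Irf9 that binds interferon-stimulated response elements, whereas interferon gamma acts through Ifngr1 and Ifngr2 and gamma-activated sequences. Ifit, Oas and Isg15 genes are classical targets of the first route, and guanylate-binding proteins (Gbp) and immunity-related GTPases (Igtp, Iigp1, Irgm1) of the second, although many genes answer to both. In bone marrow, interferons are known to act on hematopoietic stem cells and on their stromal niche, of which Cxcl12-abundant reticular cells are a main component.

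The promoters of 6 members that the comparisons turn on are shown first, searched for the elements through which both routes are known to act. Each line gives the 120 bases before the gene's start in RefSeq on GRCm38.p6, read along the gene's strand. Capitals mark matches, on either strand, to the response element GAAANNGAAA and to the gamma-activated sequence TTCNNNGAA; adjoining or overlapping matches form 1 run of capitals. Ifit1 lies at chr19:34640769-34640888 on the plus strand, Isg15 at chr4:156200819-156200938 on the minus strand, Irf7 at chr7:141266425-141266544 on the minus strand, and Gbp3 at chr3:142559924-142560043, Gbp2 at chr3:142620543-142620662 and Gbp5 at chr3:142496814-142496933 on the plus strand.
Ifit1: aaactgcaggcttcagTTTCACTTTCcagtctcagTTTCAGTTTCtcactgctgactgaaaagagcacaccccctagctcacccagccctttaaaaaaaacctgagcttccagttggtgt
Isg15: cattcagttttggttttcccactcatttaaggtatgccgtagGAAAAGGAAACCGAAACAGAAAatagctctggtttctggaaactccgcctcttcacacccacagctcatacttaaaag
Irf7: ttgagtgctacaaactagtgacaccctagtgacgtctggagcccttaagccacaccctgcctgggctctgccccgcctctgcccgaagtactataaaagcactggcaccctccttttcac
Gbp3: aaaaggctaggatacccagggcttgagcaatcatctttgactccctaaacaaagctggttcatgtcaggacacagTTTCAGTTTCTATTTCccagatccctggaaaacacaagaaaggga
Gbp2: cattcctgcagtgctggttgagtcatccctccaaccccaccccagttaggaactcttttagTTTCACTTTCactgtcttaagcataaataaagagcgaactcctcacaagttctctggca
Gbp5: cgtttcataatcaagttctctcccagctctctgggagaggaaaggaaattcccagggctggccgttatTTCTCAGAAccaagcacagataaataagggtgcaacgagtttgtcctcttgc
These windows held 2 response elements in Ifit1, 3 that overlap in Isg15, 2 that overlap in Gbp3 and 1 in Gbp2, while Gbp5 held 1 gamma-activated sequence and the Irf7 window held neither string.

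Over the 300 bases from 250 before to 50 after the start, GAAANNGAAA was present in 3.44% of all 32851 RefSeq promoters and in 17 of the 30 members that had a promoter in the table. It was found in 5 of 8 type I-like and in 7 of 8 interferon-gamma-like genes, so this string did not separate the groups. Gbp5 was among these 7, with a match at -165 from the start, outside its window above. Ifi47 was the interferon-gamma-like gene without a match. TTCNNNGAA was present in 8.30% of all promoters, in 2 of 8 type I-like genes and in 4 of 8 interferon-gamma-like genes. A match is a string of letters and was not tested as a binding site.

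The libraries held 22889380 to 44784072 UMIs (unique molecular identifiers, each standing for 1 captured RNA molecule), and 1459 to 3433 barcodes per library were taken as cells. CONT and ABL shared 5 cell barcodes in replicate 1 and 1 in replicate 2, against 6.79 and 0.898 for independent draws. Reticular cells, the class with Cxcl12, Adipoq, Lepr and Kitl, made up 87.3% and 90.1% of the mesenchymal cells of the CONT libraries and 57.6% and 19.97% of those of the ABL libraries, replicate 1 given first. They numbered 1150 and 392 cells in CONT and ABL of the first replicate and 1847 and 361 in those of the second, with median depths of 4501, 6622, 12918 and 7838 UMIs. The cells were divided into classes with the members left out of the clustering. The sorted libraries also held blood-cell classes. The paper places myeloid, lymphoid and erythroid cells of these sorts in clusters where tdTomato was not detected. Such classes are therefore not taken as Cxcl12-iCreER-marked cells. The library ABL replicate 2 was at odds with being the operated side of the same mice as CONT replicate 2. Xist was at 0 CPM in its reticular cells and at 800 CPM in those of CONT replicate 2. In replicate 1, reticular Xist was at 555 CPM in CONT and 860 CPM in ABL, so the mix of sexes may have differed there too. Results are therefore also given for cells with a Y-linked UMI and no Xist UMI. Levels are in CPM, a gene's UMIs for each 1000000 UMIs that a class held in a library. They were not scaled to gene length, and levels of single genes are not ranked against each other. Where a replicate has a pair of values, CONT comes first and ABL second, and replicate 1 precedes replicate 2.

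In reticular cells, 4 of the 35 members tested rose after ablation and 0 fell. These were Ifit1, Irf7, Isg15 and Gbp3, so that 2 type I-like genes, 1 transcription factor and 1 guanylate-binding protein passed the test (edgeR's quasi-likelihood test with the replicate as a block, Benjamini-Hochberg adjustment over 11365 genes). Of all genes tested in these cells, 2.66% were called higher and 2.02% lower, and the share of members called higher was thus above that of all genes. Because the list was chosen with earlier results of these data known, this and later comparisons with all genes are descriptions. At an unadjusted p under 0.05 there were 13 members, among them Gbp5 and Ifi47 with log2 fold changes below 0. The share of all genes at that unadjusted threshold is not given here. DESeq2 called 2 members (Ifit1 and Isg15), among 128 genes in either direction. The p-values rest on 2 libraries per condition with 1 residual degree of freedom and on a spread shared across genes, and with no replicate block 0 members passed. In simulated data the blocked edgeR fit of reticular cells called 22% of genes changed 2-fold and 84% of genes changed 4-fold. Members that did not pass may therefore still have changed by about 2-fold.

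Ifit1 (chr19:34640871-34650009 on GRCm38) encodes a protein that binds viral RNA and blocks its translation. It was at 11.4 CPM in CONT replicate 1, 28.1 CPM in ABL replicate 1, 11.8 CPM in CONT replicate 2 and 54.1 CPM in ABL replicate 2. Both ABL libraries lay above both CONT libraries, and the control levels of the replicates differed little. The log2 fold change was 1.71 ± 0.29 (SE, n = 2 libraries per condition), with an adjusted p of 4.59e-07 in edgeR. Among cells with a Y-linked UMI and no Xist UMI it was 3.05.

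Isg15 (chr4:156199424-156200818) encodes a ubiquitin-like protein that is joined to other proteins after interferon exposure. It was at 89.0 and 173 CPM in replicate 1 and at 73.7 and 222 CPM in replicate 2. The conditions did not overlap here either. The log2 fold change was 1.20 ± 0.30 (SE), with an edgeR adjusted p of 0.00270. After every cell was thinned to 2000 UMIs, which removes differences in depth, 12.7% and 8.28% of CONT reticular cells and 24.0% and 25.5% of ABL reticular cells held an Isg15 UMI (replicates 1 and 2).

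Irf7 (chr7:141262706-141266481), the factor that amplifies type I interferon production, rose as well. Its levels were 27.7 CPM and 49.0 CPM in replicate 1 and 18.9 CPM and 77.9 CPM in replicate 2. The step was larger in replicate 2, where the log2 ratio of ABL to CONT was 2.02, than in replicate 1, where it was 0.69. The fitted log2 fold change was 1.38 ± 0.27 (SE), with an edgeR adjusted p of 2.38e-05, and with DESeq2 the adjusted p was 0.0733.

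Gbp3 (chr3:142560026-142573209), of a family of GTPases that coat intracellular pathogens, was the interferon-gamma-like gene that passed the test. It was at 20.1 CPM in CONT replicate 1, 39.4 CPM in ABL replicate 1, 25.5 CPM in CONT replicate 2 and 51.8 CPM in ABL replicate 2. The levels did not overlap between conditions, and both replicates showed a similar step. The log2 fold change was 0.92 ± 0.27 (SE), with an edgeR adjusted p of 0.0176. This call was lost with DESeq2 (adjusted p = 0.482), with stricter cells (0.0668), among cells with a Y-linked UMI (0.158) and when all variable genes entered the clustering (0.0512).

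**Figure D1:**
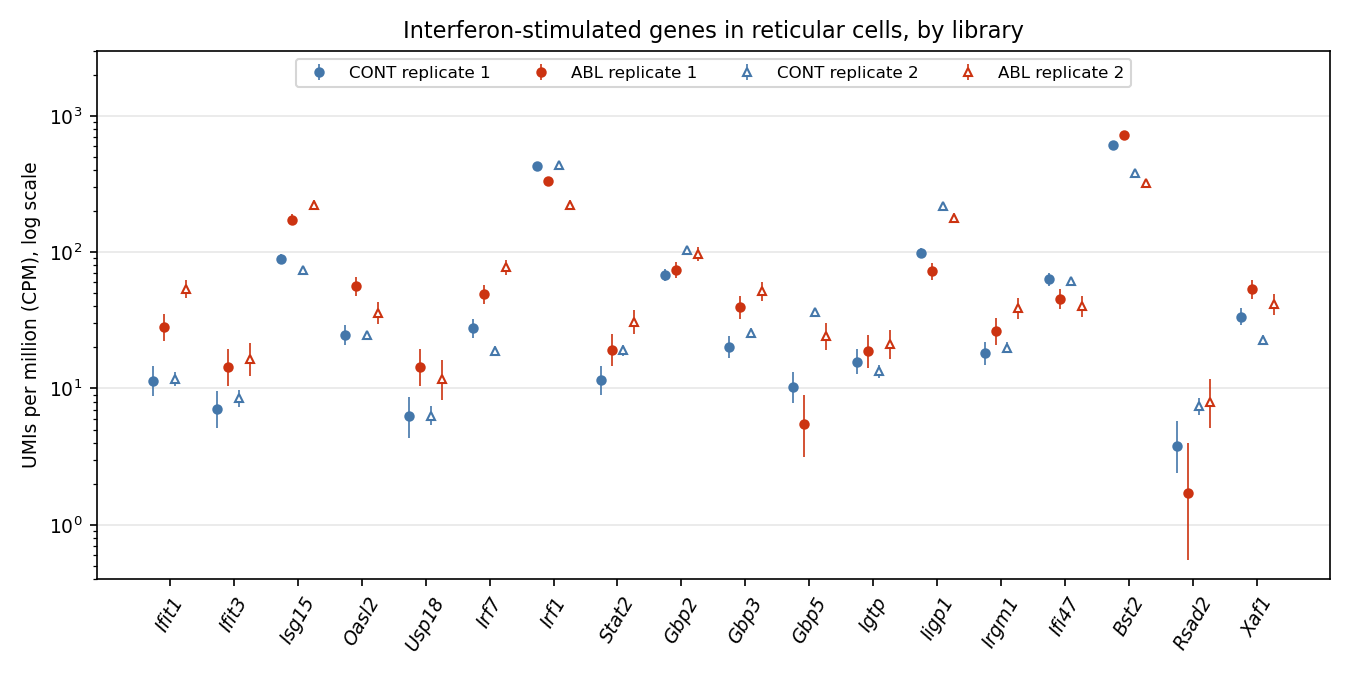
Levels of 18 named members in reticular cells of the 4 libraries, as CPM on a log axis; points are libraries (filled circles replicate 1, open triangles replicate 2, blue CONT, red ABL) and bars are exact Poisson 95% intervals, which cover counting error only. Ifit1, Isg15, Irf7 and Gbp3 lie higher in ABL than in CONT in both replicates, while Irf1, Ifi47, Gbp5 and Iigp1 lie lower.

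The other type I-like genes had log2 fold changes above 0 in reticular cells without passing the test. Ifit3 was at 7.10 and 14.4 CPM in replicate 1 and at 8.47 and 16.5 CPM in replicate 2 (log2 fold change 0.91, edgeR adjusted p = 0.0940). Oasl2, a relative of the 2'-5' oligoadenylate synthetases, was at 24.8 and 56.2 CPM in replicate 1 and at 24.5 and 35.9 CPM in replicate 2 (0.78, edgeR adjusted p = 0.0660). For both genes each ABL library lay above both CONT libraries. Ifit3b, Oasl1 and Ifit2 were at 1.73 to 7.95 CPM in every library and had log2 fold changes of 0.83, 0.98 and 0.13. Oas1a was at 1.01 to 5.41 CPM and Oas2 at 0 to 2.23 CPM, and both were too low to be tested. Ifit3 and Ifit3b are near-identical neighbours on chromosome 19, and the Oas and Gbp genes also have close paralogs, so UMIs may have been split between them or discarded.

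The interferon-gamma-like genes did not move as a group in reticular cells. Of 9 tested, 5 had a log2 fold change above 0 and 4 below 0, from -0.78 to 0.92. Igtp, one of the immunity-related GTPases, was at 15.8 and 18.9 CPM in replicate 1 and at 13.4 and 21.3 CPM in replicate 2 (0.39, edgeR adjusted p = 0.640). Irgm1, which regulates that GTPase family, was at 18.2 and 26.4 CPM and at 19.9 and 38.8 CPM (0.68, edgeR adjusted p = 0.181). The gene models of Igtp and Irgm2 overlap on chromosome 11 (chr11:58199556-58207591 and chr11:58199618-58222782), so their counts are not independent.

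Iigp1, Ifi47 and Gbp5 had levels that were lower in ABL within each replicate, and none of the 3 passed the test in these cells. Iigp1, the effector GTPase of the family, was at 98.0 and 72.4 CPM in replicate 1 and at 219 and 179 CPM in replicate 2 (log2 fold change -0.44, edgeR adjusted p = 0.573). Ifi47, another GTPase of this family, was at 63.0 and 45.6 CPM and at 61.5 and 40.1 CPM (-0.62, edgeR adjusted p = 0.201). Gbp5, which promotes inflammasome assembly, was at 10.2 and 5.49 CPM and at 36.4 and 24.2 CPM (-0.78, edgeR adjusted p = 0.166). For Iigp1 and Gbp5 the replicates differed more than the conditions. Gbp2, a guanylate-binding protein that permeabilizes pathogen vacuoles, was at 68.0 and 74.4 CPM and at 104 and 96.7 CPM, and its log2 fold change was -0.07 (edgeR adjusted p = 0.950).

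Set side by side, the median log2 fold change was 0.91 for the 7 type I-like genes tested and 0.39 for the 9 interferon-gamma-like genes, against -0.01 for all genes tested. The difference of the medians was 0.52 in the fit, 0.76 within replicate 1 and 1.08 within replicate 2. With 2 pairs of libraries an exact test could not give a p below 0.5, so these medians are a description. Among all 35 members tested the median was 0.39, and 24 had a value above 0. On counts scaled by TMM (edgeR's correction for library composition), 21 of the 35 members were higher in ABL in both replicates, against 29.4% of all genes, and this held for 6 of the 7 type I-like and 5 of the 9 interferon-gamma-like genes. Of the other 4 interferon-gamma-like genes, Gbp5, Ifi47 and Iigp1 were lower in both, while Gbp2 lay near 0 (scaled log2 ratios of -0.01 and -0.14) and was higher in ABL replicate 1 as CPM.

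Summed over the 9 type I-like genes, reticular cells held 140 and 285 CPM in replicate 1 and 133 and 355 CPM in replicate 2. The ratio of ABL to CONT was 2.03 and 2.67, and without Isg15 it was 2.19 and 2.24. The 9 interferon-gamma-like genes summed to 332 and 349 CPM in replicate 1 and to 573 and 565 CPM in replicate 2, with ratios of 1.05 and 0.986. Without Iigp1 they summed to 234 and 276 CPM in replicate 1 and to 354 and 386 CPM in replicate 2. These ratios were 1.18 and 1.09, so the direction in replicate 2 depended on Iigp1. The type I-like sum thus separated the conditions, while the interferon-gamma-like sum, with or without Iigp1, separated the replicates.

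More reticular cells held a type I-like UMI after ablation, at equal depth. After thinning to 2000 UMIs, the share was 17.9% in CONT replicate 1 (exact binomial 95% interval 15.7 to 20.3%), 35.5% in ABL replicate 1 (30.7 to 40.4%), 14.5% in CONT replicate 2 (12.9 to 16.2%) and 30.8% in ABL replicate 2 (26.0 to 35.8%). Without thinning these shares were 32.8%, 63.0%, 53.4% and 56.0%. Cells with 3 or more such UMIs were 1.30%, 5.36%, 1.52% and 8.86% of reticular cells, in the same order. In B-lineage cells, taken as a class with little type I-like RNA, the thinned share was 4.88% in CONT replicate 1, 3.23% in ABL replicate 1 and 4.69% in CONT replicate 2, at median depths of 4901, 12200 and 6020.5 UMIs. For the interferon-gamma-like genes the thinned share was 38.5%, 46.7%, 52.8% and 50.4% of reticular cells. These intervals cover counting error only.

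The higher type I-like level was present within each reticular cluster. Replicate 1 had 4 reticular clusters and replicate 2 had 5, and the type I-like sum was higher in ABL in 9 of the 9, by 1.30 to 2.20 times in replicate 1 and by 1.46 to 3.42 times in replicate 2. The interferon-gamma-like sum was higher in ABL in 6 of the 9, by 1.04 to 1.11 times in the 4 clusters of replicate 1 and by 0.641 to 1.38 times in the 5 of replicate 2. The highest levels were in cluster 3 of replicate 2, whose leading genes included Cxcl9, Cxcl10 and Iigp1 and which held 379 CONT and 72 ABL cells. There, the type I-like sum was 245 CPM in CONT and 838 CPM in ABL, and the interferon-gamma-like sum was 892 and 1234 CPM. These clusters are 1 library per condition each, so they carry no test.

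**Figure D2:**
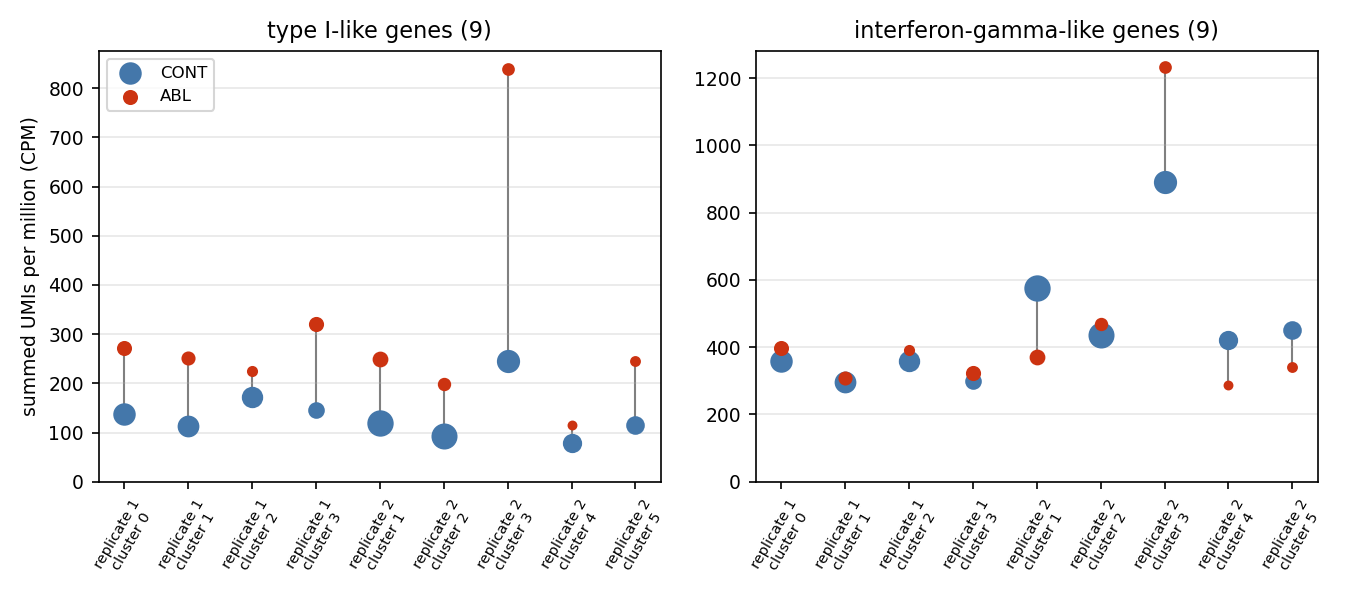
Summed type I-like (left) and interferon-gamma-like (right) levels, in CPM, in each reticular cluster of replicates 1 and 2; blue points are CONT, red points ABL, point area grows with the number of cells and lines join the conditions of a cluster. Every line rises from CONT to ABL on the left, whereas 3 of the 9 fall on the right.

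The remaining transcription factors showed no common direction in reticular cells. Irf1, an early target of interferon gamma and of other inflammatory signals, was at 427 and 333 CPM in replicate 1 and at 439 and 223 CPM in replicate 2 (log2 fold change -0.75, edgeR adjusted p = 0.382). Stat2, a signal transducer of the type I response, was at 11.6 and 19.2 CPM and at 19.1 and 30.9 CPM (0.63, edgeR adjusted p = 0.288). Irf9, which guides that complex to DNA, had a log2 fold change of -0.05.

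Among the antiviral effectors 0 of the 7 tested passed. Of all genes tested in reticular cells 2.66% were called higher and 2.02% lower, so 0 of 7 is near that share. Bst2 (tetherin), which holds budding virus at the cell surface, was at 613 and 726 CPM in replicate 1 and at 380 and 322 CPM in replicate 2, and its log2 fold change was -0.08 (edgeR adjusted p = 0.972). Rsad2 (viperin), which makes an antiviral nucleotide, was at 3.81 and 1.71 CPM and at 7.38 and 7.95 CPM (-0.39, edgeR adjusted p = 0.809). Xaf1, a pro-apoptotic factor, was at 33.6 and 53.5 CPM and at 22.6 and 41.3 CPM (0.69, edgeR adjusted p = 0.131). Xaf1 was higher in ABL within each replicate, and Bst2 and Rsad2 moved in opposite directions in the replicates. Ifi44, Ifi35, Ifi27 and Cmpk2 had log2 fold changes of 0.59, 0.43, 0.26 and -0.27, and Mx1 was at 0 to 2.54 CPM and was not tested.

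The sensors Ddx58 (RIG-I), Ifih1 (MDA5) and Zbp1 had log2 fold changes of 0.19, -0.13 and 0.19, and 0 of the 3 passed. Of the 5 enzymes of ISG15 conjugation or ADP-ribosylation 0 passed. For groups this small, 0 calls is near the share of all genes called in these cells (2.66% higher and 2.02% lower). Usp18, which removes ISG15 from proteins and dampens the type I receptor, was at 6.23 and 14.4 CPM in replicate 1 and at 6.34 and 11.8 CPM in replicate 2 (0.96, edgeR adjusted p = 0.110). Trim25, Parp9, Dtx3l and Parp14 had log2 fold changes of 0.56, 0.38, 0.16 and -0.29. Parp9 and Dtx3l overlap on opposite strands of chromosome 16.

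**Figure D3:**
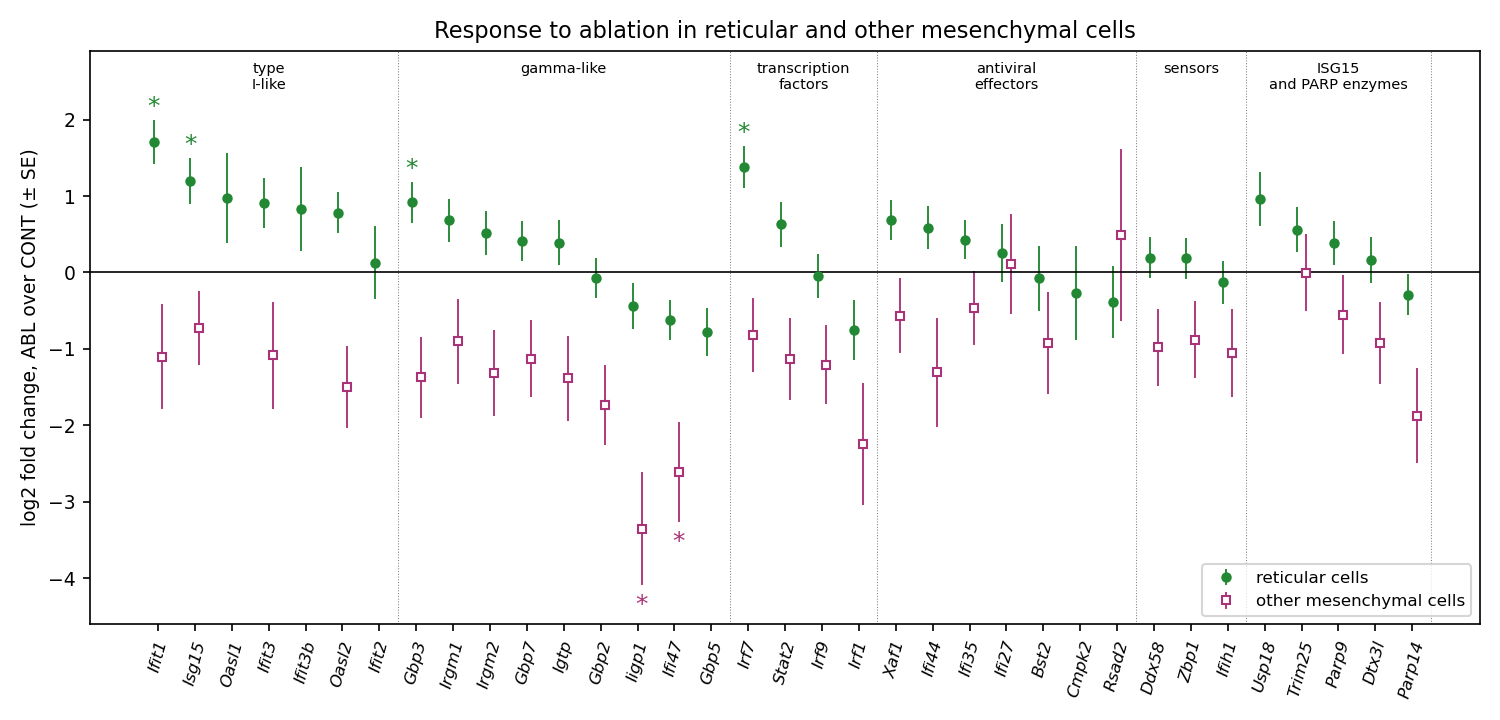
Log2 fold change of ABL over CONT for the members tested in reticular cells (filled green circles) and in other mesenchymal cells (open purple squares), with the standard error of the edgeR fit as bars and asterisks where the adjusted p was under 0.05. The 7 type I-like genes lie above 0 in reticular cells and the 4 that were tested in other mesenchymal cells lie below 0.

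Several RNA levels moved with condition in the same reticular cells, and their part in the result was not tested except where stated. The 8 reticular markers summed to 24880 and 22820 CPM in replicate 1 and to 29880 and 19860 CPM in replicate 2, and mitochondrial UMIs made up 3.59% and 4.02% and then 4.02% and 5.67% of the total. In ABL the markers of the class were thus lower and the mitochondrial share was higher within each replicate. The 10 neutrophil markers summed to 10340 and 6151 CPM and to 146 and 108 CPM. The summed level of 20 dissociation-response genes was 21330 and 14990 CPM in replicate 1 and 21850 and 13600 CPM in replicate 2, the opposite direction to the type I-like genes. The 9 monocyte-macrophage markers summed to 39.8 and 69.6 CPM and to 5.08 and 46.4 CPM, with Ccr2 at 0 in ABL replicate 2. The 5 plasmacytoid markers summed to 2.94 and 4.46 CPM and to 0.847 and 1.27 CPM. The 7 erythroid markers, at 5138 and 4939 CPM and at 113 and 1686 CPM, moved in opposite directions in the replicates. Free RNA, measured in droplets of at most 300 UMIs, made up an estimated 8.61% and 9.87% of reticular UMIs in replicate 1 and 0.824% and 12.4% in replicate 2, and held type I-like genes at 86.8 and 111 CPM and at 113 and 134 CPM. With free RNA subtracted, Ifit1, Irf7, Isg15 and Gbp3 were still called higher. Among cells with a Y-linked UMI and no Xist UMI, which numbered 294, 44, 463 and 230, Ifit1, Irf7 and Isg15 were called.

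Genes upstream of the members did not pass the test in reticular cells. The genes were 10 receptor and receptor-signalling genes tested out of 11 listed, 9 other Irf genes and inhibitors, and 9 adaptors of nucleic acid sensing tested out of 11. In each group 0 passed. Of all genes tested in these cells 2.66% were called higher and 2.02% lower, so 0 calls among so few genes is near that share. Nearest the threshold were Jak2 (log2 fold change -0.81, edgeR adjusted p = 0.0539) and Irf8 (-0.81, edgeR adjusted p = 0.0764). Ifnar1 was at 37.6 and 44.2 CPM in replicate 1 and at 61.3 and 53.4 CPM in replicate 2, and Ifnar2 at 281 and 196 CPM and at 339 and 213 CPM (log2 fold change -0.68, edgeR adjusted p = 0.396). Ifngr1 was at 147 and 155 CPM and at 207 and 163 CPM, and Ifngr2 at 108 and 137 CPM and at 83.1 and 71.9 CPM. Both receptor pairs were therefore detected in every library.

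Of 52 further interferon-stimulated genes 37 were tested, and 2 rose in reticular cells, where 2.66% of all genes were called higher. Rtp4, which is strongly induced by type I interferon, was at 39.7 and 73.7 CPM and at 22.5 and 47.7 CPM (0.91, edgeR adjusted p = 0.0157). Ifi27l2a, a small interferon-induced protein, was at 16.1 and 19.9 CPM and at 0.767 and 37.8 CPM (2.67, edgeR adjusted p = 5.77e-11), so its change came mainly from replicate 2. Their median was 0.21, with 28 of 37 above 0.

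Interferon transcripts themselves were rare in these sorted cells. Over all cells and 21 ligand genes, 12, 11, 46 and 25 UMIs were counted in CONT replicate 1, ABL replicate 1, CONT replicate 2 and ABL replicate 2. Ifng had 7, 5, 35 and 21 UMIs, and Ifnb1 had 1, 0, 2 and 0. In reticular cells Ifng was found as 2 UMIs in CONT replicate 1 and as 0 in the other libraries. None of the 21 could be tested. The sort was for tdTomato+ cells, so marrow cells outside that gate were not sampled as such.

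In mesenchymal cells outside the reticular class, interferon-stimulated genes fell or did not pass the test. These cells (167, 289, 204 and 1447 in CONT replicate 1, ABL replicate 1, CONT replicate 2 and ABL replicate 2) included pre-osteoblast-like, osteoblast-like, periosteal-like, chondrocyte-like, cycling, mural-like and unnamed clusters, in different proportions in each library. Among the 1447 cells of ABL replicate 2, 461 were periosteal-like, 88 osteoblast-like, 84 cycling, 51 chondrocyte-like and 8 mural-like, and the rest were unnamed. Of 29 members tested 2 fell, Iigp1 and Ifi47, and 0 rose, against 0.87% of all genes called lower and 0.517% called higher. At an unadjusted p under 0.05 there were 12 members, with no share of all genes at that threshold to set beside them. DESeq2 called 1 member, among 97 genes in either direction. Iigp1 was at 40.4 and 16.0 CPM in replicate 1 and at 174 and 4.59 CPM in replicate 2 (log2 fold change -3.35 ± 0.74, edgeR adjusted p = 0.0171). Ifi47 was at 22.4 and 12.4 CPM and at 34.8 and 1.78 CPM (-2.61 ± 0.66, edgeR adjusted p = 0.0415). In both genes the step was larger in replicate 2.

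In the same cells the type I-like sum was 113 and 65.5 CPM in replicate 1 and 109 and 52.4 CPM in replicate 2, and the interferon-gamma-like sum was 188 and 113 CPM and 440 and 55.9 CPM. The median log2 fold change of the 29 members was -1.09, with 2 above 0. Free RNA made up an estimated 37.3% and 17.4% of the UMIs of these cells in replicate 1 and 1.05% and 7.28% in replicate 2. The 10 neutrophil markers summed to 61540 and 17750 CPM and to 223 and 512 CPM. The part of free RNA in the sums was not tested. The 8 reticular markers, summed over these non-reticular cells, were at 6892 and 3563 CPM and at 13440 and 558 CPM, and thus were lower in ABL, as the members were; their part in this result was not tested. Within single cell types the sums did not all move one way. In pre-osteoblast-like cells of replicate 1 (49 and 95 cells) the type I-like sum was 246 and 90.6 CPM and the interferon-gamma-like sum 419 and 128 CPM. In replicate 2 the type I-like sum was 80.2 and 29.4 CPM in osteoblast-like cells (33 and 88 cells) and 114 and 52.4 CPM in periosteal-like cells (56 and 461), with interferon-gamma-like sums of 313 and 47.8 CPM and of 428 and 62.1 CPM. In replicate 1, osteoblast-like cells (9 and 59) held 20.9 and 28.8 CPM of the type I-like and 20.9 and 33.2 CPM of the interferon-gamma-like genes, and periosteal-like cells (8 and 11) held 0 and 116 CPM and 100.5 and 102 CPM. The sums were lower in ABL in the first 3 of these pairs and not in the last pair of cell types, which had 9 and 8 CONT cells. Mural-like cells (9 and 9, then 4 and 8) held 0 and 116 CPM and then 81.0 and 104 CPM of the type I-like genes. Their interferon-gamma-like sums were 116 and 116 CPM and then 216 and 172.5 CPM, and each of these sums rested on at most 10 UMIs. Chondrocyte-like and cycling cells numbered 1 each in CONT replicate 2 and were not compared. When Scrublet doublets were removed or free RNA was subtracted, neither call passed the test and neither fold shrank: Iigp1 had log2 fold changes of -3.41 and -3.91 (edgeR adjusted p = 0.328 and 0.487) and Ifi47 of -2.69 and -3.17 (0.387 and 0.652).

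The difference between the responses of both mesenchymal classes was tested by an interaction that was added after their values were seen. For 0 of the members did it pass in edgeR, where 0.0253% of 11863 genes passed. An unadjusted p under 0.05 was reached by 26 of 35 members, and the share of all genes at that threshold is not given here. The largest test values were those of Ifit1, with a difference of 2.78 ± 0.38 on the log2 scale (edgeR adjusted p = 0.0729), Isg15 with 1.87 ± 0.32 (edgeR adjusted p = 0.127) and Oasl2 with 2.19 ± 0.40 (edgeR adjusted p = 0.138). DESeq2 called these 3 genes, with adjusted p-values of 0.00652, 0.00432 and 0.0383, among 74 genes in all. The number of members that edgeR called depended on which library was left out. Those fits had 1 library in a condition, so their calls are not weighed here. By TMM-scaled log2 ratios, with no test, 15 of 29 members were higher in ABL in both replicates in reticular cells and lower in both in the other mesenchymal cells, against 3.98% of the 10514 genes in both fits.

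Over all mesenchymal cells together, 3 of 38 members fell and 0 rose, against 1.61% of all genes called lower and 2.98% called higher. The 3 were interferon-gamma-like: Gbp5, Ifi47 and Iigp1. Gbp5 was at 8.65 and 3.68 CPM in replicate 1 and at 35.2 and 3.44 CPM in replicate 2 (log2 fold change -2.42 ± 0.55, edgeR adjusted p = 0.0101). Ifi47 was at 56.2 and 28.6 CPM and at 58.8 and 6.49 CPM (-2.12 ± 0.51, edgeR adjusted p = 0.0155), and Iigp1 at 88.4 and 43.5 CPM and at 215 and 26.0 CPM (-2.08 ± 0.55, edgeR adjusted p = 0.0264). For each gene both ABL libraries were below both CONT libraries. The share of reticular cells among these cells was 87.3% and 57.6% in replicate 1 and 90.1% and 19.97% in replicate 2. DESeq2 called 4 members, among 593 genes in either direction. In simulated data the edgeR fit of all mesenchymal cells called 1% of genes changed 2-fold and 25% of genes changed 4-fold. With stricter cells, without Scrublet doublets or with free RNA subtracted the folds stayed within the SE (Gbp5 -2.43 to -2.47, Ifi47 -2.12 to -2.23, Iigp1 -2.08 to -2.13), while the edgeR adjusted p was 0.0512 to 0.0639 for Gbp5, 0.0817 to 0.0912 for Ifi47 and 0.0974 to 0.108 for Iigp1 (0 members called). The type I-like sum over all mesenchymal cells was 136 and 173 CPM in replicate 1 and 131 and 89.6 CPM in replicate 2, with opposite directions in the replicates.

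In neutrophil-lineage cells (967, 319, 154 and 107 cells) 0 of 26 members passed in either direction, against 0% of all genes called lower and 0.0464% called higher. At an unadjusted p under 0.05 there were 0 members, and DESeq2 called 0. In simulated data the edgeR fit of these cells called 3% of genes changed 2-fold and 34% of genes changed 4-fold. Changes of this size could thus be missed. Isg15 was at 17.4 and 18.4 CPM in replicate 1 and at 30.8 and 28.9 CPM in replicate 2 (log2 fold change 0.15). Oas1a, which makes the 2'-5' oligoadenylates that activate RNase L, was at 11.02 and 16.7 CPM and at 5.64 and 7.78 CPM. The interferon-gamma-like sum was 26.8 and 37.6 CPM and 87.6 and 7.78 CPM, in opposite directions. Free RNA made up an estimated 7.82% and 7.46% of the UMIs of these cells in replicate 1 and 12.8% and 4.57% in replicate 2. It held interferon-gamma-like genes at 153 and 157 CPM and at 456.5 and 167 CPM. How much of these sums was free RNA was not tested. The interaction between reticular and neutrophil-lineage responses passed for 0 members, where 0% of 11641 genes passed in edgeR; 0 members had an unadjusted p under 0.05 and DESeq2 called 0.

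In erythroid cells (466, 146, 64 and 43 cells) 0 of 22 members passed in either direction, against 0.348% of all genes called lower and 0.415% called higher. At an unadjusted p under 0.05 there were 2 members (Iigp1 and Irf1), and DESeq2 called 0. Rsad2 was at 119 and 183 CPM in replicate 1 and at 188 and 27.0 CPM in replicate 2 (log2 fold change -0.99, edgeR adjusted p = 0.838), and Isg15 was at 77.0 and 106 CPM and at 216 and 81.8 CPM. Both genes were higher in ABL in replicate 1 and lower in replicate 2.

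Other classes were missing from at least 1 library and were not tested. In monocyte-macrophage cells (345, 177, 0 and 294 cells) the type I-like sum was 81.9 CPM in CONT replicate 1, 133 CPM in ABL replicate 1 and 125 CPM in ABL replicate 2, and the interferon-gamma-like sum was 99.1, 94.1 and 170 CPM. Irf7 in these cells was at 26.3, 48.0 and 51.8 CPM. Endothelial cells numbered 89 and 25 in the CONT libraries of replicates 1 and 2 and 116 in the ABL library of replicate 2. Their type I-like sum was 72.1, 17.2 and 126 CPM, from 33, 7 and 126 UMIs. Their interferon-gamma-like sum was 295, 731 and 352 CPM. In plasmacytoid cells, a dendritic lineage known for making type I interferon and marked on its surface by the product of Bst2 in the mouse, Bst2 was at 4471 CPM in CONT and 4942 CPM in ABL of replicate 1 (59 and 23 cells). The type I-like sum of these cells was 44.2 and 97.6 CPM, from 13 and 14 UMIs, and the interferon-gamma-like sum was 187 and 139 CPM. In B-lineage cells of replicate 1 the type I-like sum was 32.2 CPM in CONT and 7.54 CPM in ABL, from 32 and 3 UMIs.

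**Figure D4:**
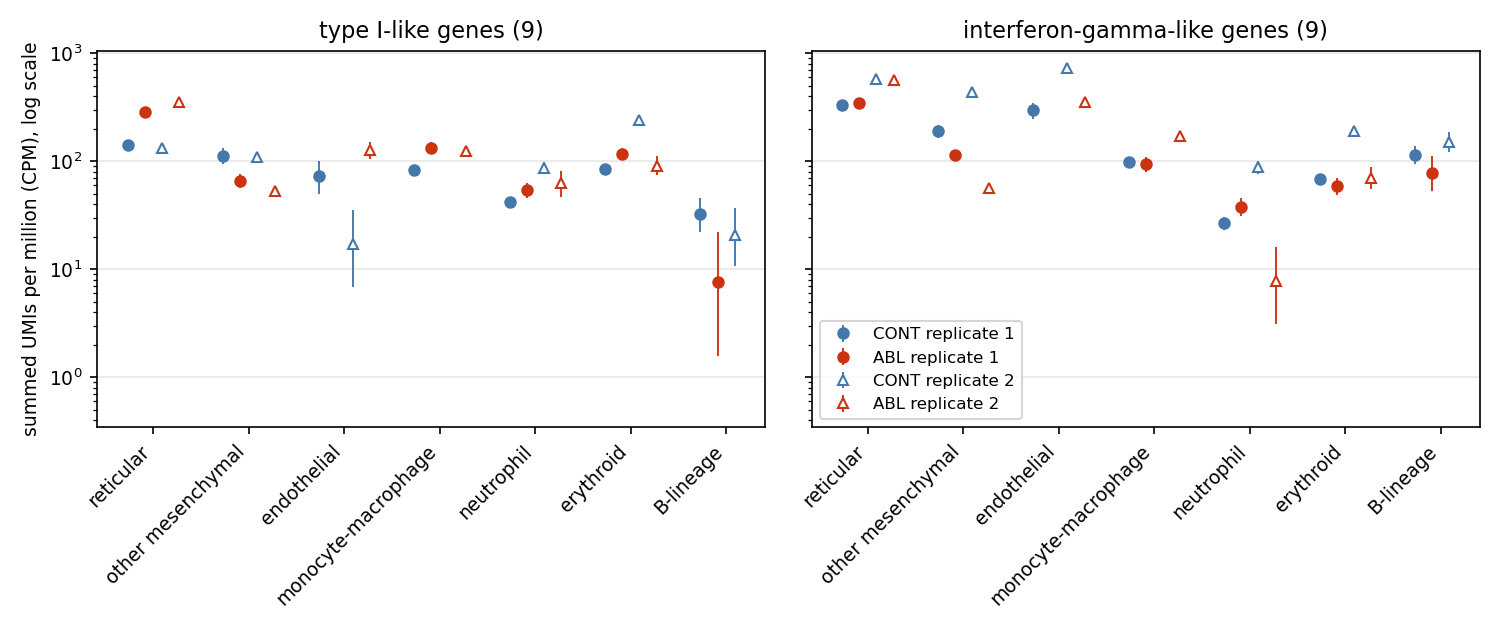
Summed type I-like (left) and interferon-gamma-like (right) levels per cell class and library, in CPM on a log axis, with exact Poisson 95% intervals for counting error (filled circles replicate 1, open triangles replicate 2, blue CONT, red ABL). In reticular cells the type I-like sums of ABL, 285 and 355 CPM, lie above those of CONT, 140 and 133 CPM, and in other mesenchymal cells they lie below.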

How the data were processed

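Cxcl12CE-tdTomato+ cells of 4 libraries were analysed. The deposited values are raw UMI counts per feature and barcode; per the labels and the submitters' processing notes they were made with Cell Ranger on mm10, and Seurat was also named. Cell Ranger's version is not given in the sources used here. No cells had been called in the files, so barcodes were kept from 500 genes and up to 20% mitochondrial UMIs (version 2) or from 1000 genes and up to 15% (version 3). They also had to reach 1/10 of the UMIs at percentile 99 of the 3000 deepest barcodes, which left 1459 to 3433 cells. Every kept cell therefore held more than the 2000 UMIs used for thinning. No doublets were removed, and Scrublet (scanpy 1.11.5) called 0.0832% to 2.27% of cells per library.

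Cells were clustered in Seurat 5.3.0 (R 4.3.3; 2000 variable genes, 30 components, 20 neighbours, resolution 0.8) with 297 genes left out, the members among them, and mesenchymal cells were integrated by CCA within each replicate. Classes were named from a fixed marker list. Sums of counts over the cells of a class in a library entered edgeR 4.0.16 (quasi-likelihood F test, TMM, filterByExpr, replicate as a block, Benjamini-Hochberg over all genes, threshold 0.05) where every library had 20 cells. DESeq2 1.42.0 was an alternative. The block follows the replicate numbers of the sample titles, which go with a shared chemistry. Deviations from the condition means correlated at 0.667 within numbers in reticular cells and at 0.438 to 0.577 elsewhere. The prior degrees of freedom were infinite in the reticular and erythroid fits. The SE is the log2 fold change divided by the square root of F. No source says whether replicate 2 was 1 animal or several. Reticular cells of CONT replicate 2 held Xist at 800 CPM and also cells with a Y-linked UMI and no Xist UMI, as from both sexes. Those of ABL replicate 2 held Xist at 0 CPM, so sex was in part tied to condition in replicate 2. Reticular cells of replicate 1 held Xist at 555 CPM in CONT and 860 CPM in ABL, so an equal mix of sexes cannot be assumed there either. The p-values measure the spread between these libraries only. In the reticular and erythroid fits this is a spread shared across genes. The difference of a single gene between replicates may exceed its SE. Poisson and binomial intervals (95%) are exact.

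The members and all gene lists were chosen with earlier results of these data known. Named with values are every member past the threshold and a fixed set of 15 members, with the interferon receptors, Ifng and Ifnb1. Gene positions are from GENCODE on GRCm38, and promoters from RefSeq on GRCm38.p6, with 30 of 39 members matched. The fits of reticular, all mesenchymal and neutrophil-lineage cells were tested on simulated data. A result planned for 1 further gene is not reported here. Alternatives are listed in the closing section.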

Additional observations from a re-analysis of the deposited data

Results flagged for a closer look

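In 15 of the 29 members tested in both mesenchymal classes, every library pair moved one way in reticular cells and the opposite way in other mesenchymal cells: the level was higher in ABL in both replicates among reticular cells and lower in both replicates among other mesenchymal cells (TMM-scaled log2 ratios). Of all 10514 genes in both fits, 3.98% did the same. These were Gbp7, Gbp3, Ifi44, Ddx58, Isg15, Oasl2, Irf7, Stat2, Igtp, Irgm2, Xaf1, Ifi35, Parp9, Ifit3 and Ifit1, and the reverse was seen for 0 members. The difference was tested gene by gene with the interaction given above, which passed for 0 of these genes in edgeR and for Ifit1, Isg15 and Oasl2 in DESeq2. No group of the design held 4 or more libraries, so single libraries could not be examined as outliers.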

How the results depend on the processing

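The replicate block decided most calls. The numbers go with a shared chemistry. The sample titles name no mice, and the paper describes the contralateral femur as an internal control. In replicate 2 reticular Xist was at 800 CPM in CONT and 0 CPM in ABL, so shared mice are not assumed there. With no replicate block 0 members were called higher in reticular cells, 0 lower in all mesenchymal and 0 lower in other mesenchymal cells. The reticular median of the members was then 0.35. Within 1 class the block leaves no residual degree of freedom once a library is left out, so those fits had no block. There, 0 members (0 to 0) were called higher in reticular and 0 lower in all mesenchymal cells. In other mesenchymal cells 0 to 3 were called lower. The interaction of both mesenchymal classes, a separate fit, called 0 to 21 members when a library was left out. In each of these fits the lone library was assumed to vary like the others. Leaving out 1 library gave reticular medians of 0.16 to 0.76 and type I-like minus interferon-gamma-like differences of 1.05 without CONT replicate 1, 0.83 without ABL replicate 1 and 1.01 without ABL replicate 2; the differences were 1.08 without replicate 1 and 0.76 without replicate 2 (medians 0.44 and 0.45). In reticular cells DESeq2 called 2 members higher and classes made with no integration 10. Among cells with a tdTomato UMI, 1 member (Gbp5) was called lower. The share of all genes called under each alternative setting is not given here. In all mesenchymal cells 0 members were called lower with stricter cells, without Scrublet doublets, with free RNA subtracted or with all variable genes in the clustering, and 1 among cells with a tdTomato UMI; in the first 4 settings the folds of Gbp5, Ifi47 and Iigp1 were not smaller than in the fit given above and only the adjusted p moved past the threshold (0.0512 to 0.127). In other mesenchymal cells 0 were called lower with no TMM, without Scrublet doublets, with free RNA subtracted, among cells with a Y-linked UMI or with all variable genes; 1 with DESeq2, with stricter cells, with a tdTomato UMI, with thinning or at resolution 1.5; and 7 with no integration. In erythroid cells 1 (Iigp1) was called lower with all variable genes. DESeq2 called 3 members in the added interaction.
The reticular median of the members was 0.37 with DESeq2, 0.47 with no TMM, 0.42 with a tdTomato UMI, 0.46 with free RNA subtracted, 0.35 with thinning, 0.63 with a Y-linked UMI, 0.36 with all variable genes and 0.50 with no integration. The type I-like minus interferon-gamma-like difference was 0.75 with a Y-linked UMI and 0.75 with Gbp and Igtp, Iigp1 genes alone. The sign turned, always without a call, for Bst2 (0.0048 with no TMM, 0.17 with a Y-linked UMI, 0.38 and 0.40 without CONT replicate 1 and ABL replicate 2), Gbp2 (0.0070 with no TMM, 0.093 with thinning, 0.14 and 0.25 without ABL replicate 1 and CONT replicate 2), Iigp1 (0.15 and 0.29 without the same libraries) and Rsad2 (0.46 and 0.28 likewise, 0.55 with all variable genes). The causes were not tested. Counts under 10 UMIs in a library, as for Oas1a, Oas2 and Mx1, limit what can be seen of these genes.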
